A study of Schizosaccharomyces pombe with 88 samples.

Results

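The genes described here lie at the ends of chromosomes I and II of the fission yeast Schizosaccharomyces pombe, close to the telomeres. They were taken by name, from probes that carry a single gene symbol. Kept were tlh1 and genes of the clone series SPAC212, SPAC977, SPAC869, SPAC186, SPAC750, SPBC1348, SPBPB10D8, SPBC359 and SPBPB2B2. That gave 69 genes of the 5016 gene units tested on the arrays, each read by 2 probes, after mug14 and ght7 had been set aside. The annotation lists 100 protein-coding genes in these series and SPBCPT2R1 together, so the 69 do not cover every gene of the ends. The left end of chromosome I held 16 of them (SPAC212 and SPAC977), its right end 23 (SPAC869, SPAC186 and SPAC750), the left end of chromosome II 19 (SPBC1348, SPBPB10D8 and SPBC359) and its right end 11 (SPBPB2B2). A systematic ID is the only name of 41 of them, and 28 have a gene symbol. The annotation lists 4 of them as pseudogenes (SPAC212.07C, SPAC977.13C, SPBC1348.11 and SPBPB10D8.03). The rule uses names and no measured value, but it was set with earlier results of these data known.

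Synchronous cultures came from elutriation, a size selection that here took cells in early G2, and were sampled every 40 min from 0 to 200 min. The mutant strains were mutated in rad3 (a sensor kinase of the ATR family that also acts in telomere maintenance), cds1 (the kinase that carries the replication checkpoint signal) or chk1 (its counterpart for DNA damage), and were set against wild type (WT). Each strain was followed with 8 mM hydroxyurea (HU), which stalls DNA replication by blocking ribonucleotide reductase, and without it. The labels do not say which alleles the mutants carry or which markers the strains share. Every array set Cy5-labelled sample cDNA against Cy3-labelled cDNA of asynchronous WT cells from mid-log culture without HU. A value is therefore a log2 ratio of a gene to its own level in that reference and says nothing about which of 2 genes has more RNA. Each of the 44 conditions has 2 arrays that the series text calls technical repeats, averaged here to 1 value. No replicate cultures are named. A p-value here therefore covers only how much these samples varied among themselves, which may be technical, and strain, culture and array batch cannot be told apart.

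Subtelomeres are the stretches next to the telomere repeats. In fission yeast much of this DNA is packed as heterochromatin, marked by the histone methyltransferase Clr4 and bound by the HP1-like protein Swi6, and genes inside it are kept low in growing cells. Telomere-bound proteins such as Taz1 and RNA interference both help to set up this silencing at tlh1, a helicase gene next to the telomere. Farther in, the ends carry many genes for transporters, cell surface proteins and enzymes of nutrient use, several of them in families of similar copies.

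Some arrays did not match their labels. Arrays labelled chk1 at 120 min in both arms and with HU at 200 min, 6 in all, matched WT arrays with an SD of the difference of 0.00188 to 0.184, where other chk1 and WT arrays differed by at least 0.289. They were left out, which left 41 conditions. The rad3 gene read -2.81 to -2.45 in the rad3 strain against -0.89 to 0.0852 in WT, and the cds1 gene -3.22 to -2.70 in the cds1 strain against -0.197 to 1.30 in WT. The chk1 gene read -1.55 to -0.532 on arrays labelled chk1 against -0.829 to 0.162 in WT, and at 160 min with HU it was -0.53 on the arrays labelled chk1 against -0.83 in WT, so "chk1" below means arrays with that label. Array repeats correlated with a median r of 0.83 in rad3, 0.985 in cds1, 0.992 in chk1 and 0.757 in WT. The spread over probes was 0.772 to 0.944 (SD) on the 8 arrays of 0 min and 0.342 to 0.709 on the other 80.

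As a group, the subtelomeric genes read below the asynchronous reference through the time course. Their mean ratio over the 19 conditions without HU after 0 min had a median of -0.32, and 54 of 69 (78.3%) lay below 0. Over all 5016 units the median was 0 and 50.3% lay below 0. A mean under -0.5 was found for 21 of the 69 (30.4%) against 5.28% of all units, and a mean over 0.5 for 2 (2.9%) against 4.92%. In a culture, fewer cells expressing a gene and less RNA per cell cannot be told apart. The sample was in Cy5 and the reference in Cy3 on every array. A lower level than in the reference therefore cannot be told apart from a dye difference or a dim spot.

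The low ratios were seen in all 4 strains and at all 4 ends. The median over the genes was -0.29 in rad3, -0.32 in cds1, -0.37 in chk1 and -0.38 in WT. By end it was -0.24 and -0.28 at the left and right ends of chromosome I, and -0.49 and -0.30 at those of chromosome II. At the left end of chromosome I 10 of 16 genes lay below 0 (62.5%), and at its right end 17 of 23 (73.9%). At the left end of chromosome II 17 of 19 lay below 0 (89.5%), and at its right end 10 of 11 (90.9%). With only the second array repeat the overall median was -0.34, and with only the first it was -0.31.

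Individual genes ranged from -1.92 to 0.60 in this mean. The lowest was ftm5, a gene of a family of predicted membrane proteins, at the left end of chromosome II, with a mean of -1.92 and a range of -3.50 to -0.82 over the 19 conditions. The highest was gdt1, whose relatives are Golgi manganese and calcium transporters, with a mean of 0.60 and a range of -0.02 to 1.09. SPAC977.12 had 0.56 and SPAC212.02 -0.97 as the highest and lowest means of the left end of chromosome I. pfl9, one of a family of flocculin-like adhesins of the cell surface, was the lowest at the right end of that chromosome with -1.19. At the left end of chromosome II abc3, a vacuolar ABC transporter, had the highest mean with 0.04. At the right end of chromosome II SPBPB2B2.08 had the highest mean with 0.36 and gal7, the uridylyltransferase of galactose use, the lowest with -0.57. tlh1 averaged 0.09, with values from -1.47 to 1.61 that separated by strain, as described below.

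**Figure D1:**
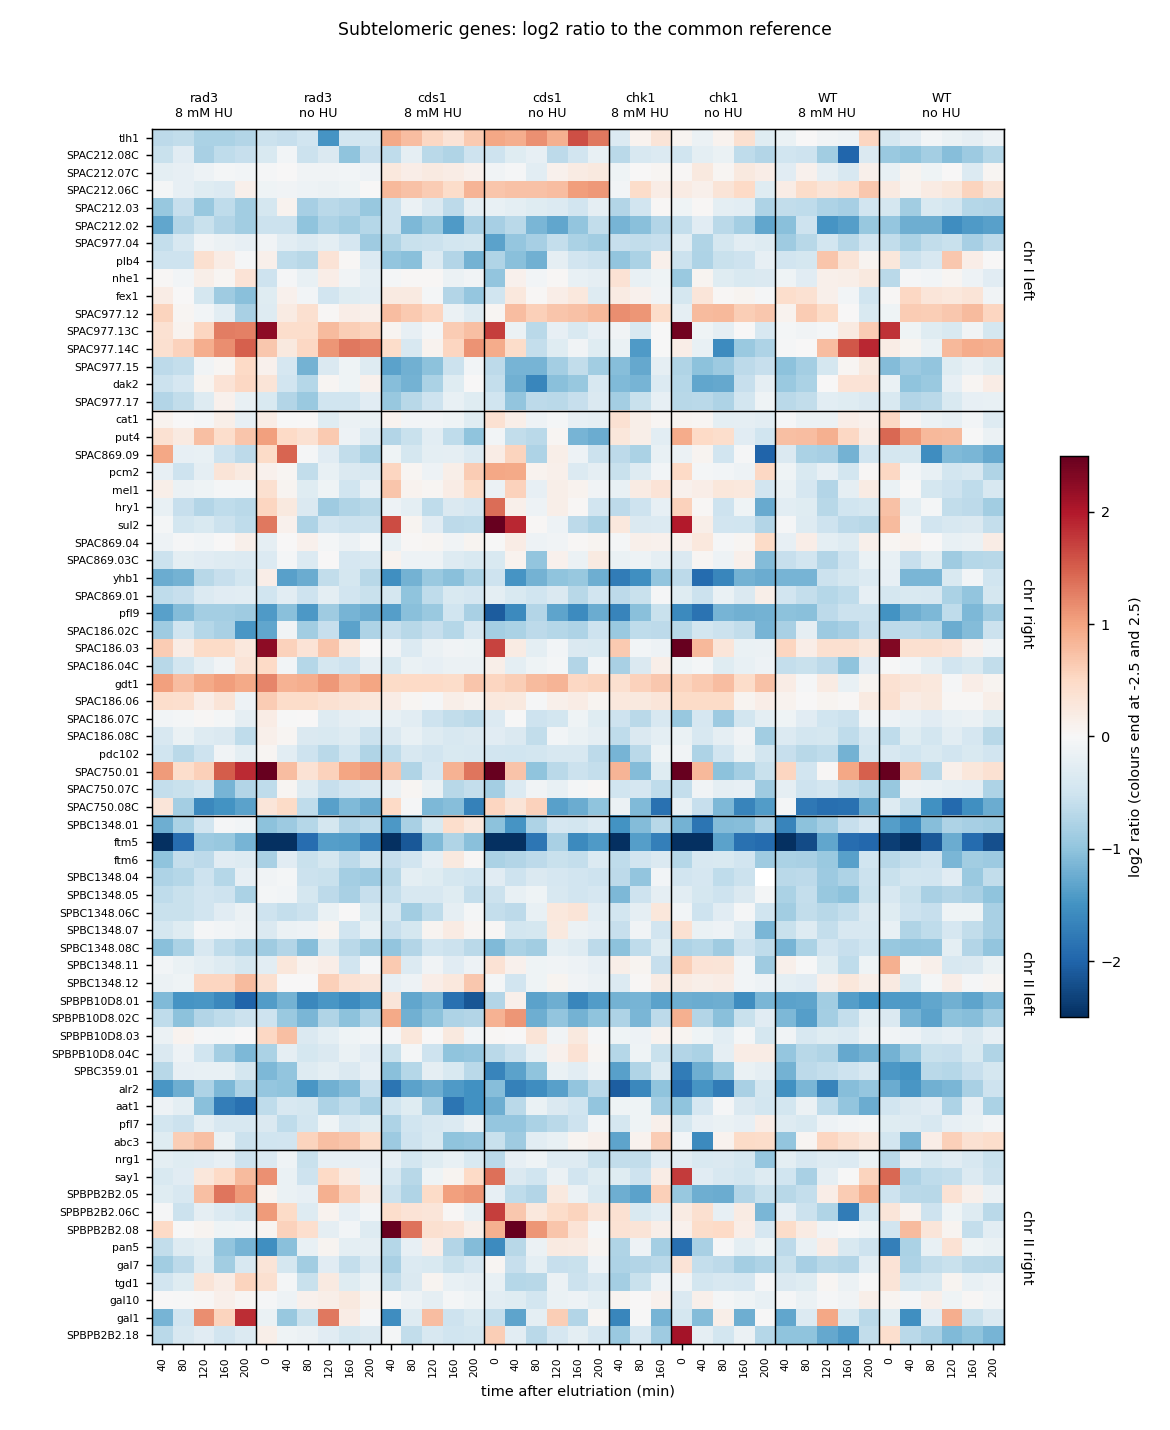
Log2 ratio to the common reference of all 69 genes (rows, in chromosome order within each end) in the 41 conditions used (columns, by strain, arm and time in min). Blue is below and red above the reference, with colours ending at -2.5 and 2.5. Most rows are blue, ftm5 stays between -3.50 and -0.75, and tlh1 is red throughout the cds1 columns and blue throughout the rad3 columns. The blank cell is SPBC1348.04 in chk1 without HU at 200 min, the only missing value.

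Without HU, limma's moderated F test over the 6 times, with strains as replicates, called 45 of the 69 genes at an adjusted p under 0.05 (65.2%, against 78.7% of all units). The genes called were highest most often at the start, as were all called units: 19 of the 45 (42.2%) had their highest time mean at 0 min, against 38.6%. A further 10 (22.2%) were highest at 120 min, against 13.4% of all called units. At 40, 80, 160 and 200 min 5, 2, 4 and 5 were highest. These were 11.1%, 4.44%, 8.89% and 11.1%, against 16.8%, 17.1%, 6.11% and 8.01% of all called units. By end, 9 of 16 and 14 of 23 genes were called on chromosome I, and 13 of 19 and 9 of 11 on chromosome II.

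Both kinds of course are seen in the 8 genes whose time means spanned the widest range among the 69. SPAC750.01 averaged 2.85 ± 0.08 at 0 min and 0.75 ± 0.05 at 40 min (SD over 4 strains), and -0.59 ± 0.65 at 80 min. It stood at 2.76, 2.93, 2.91 and 2.80 at 0 min in rad3, cds1, chk1 and WT, far above every later value without HU. Its 2 probes disagreed on the size, with a start minus 40 min difference of 0.32 on one and 3.87 on the other. The pseudogene SPAC977.13C read 2.23, 1.73, 2.41 and 1.80 at 0 min in the same order of strains, against 0.43, -0.14, -0.11 and -0.10 at 40 min, with no overlap. SPAC186.03 averaged 2.35 ± 0.61 at 0 min and 0.50 ± 0.26 at 40 min. These genes have no symbol, and no role is given to them here.

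Of the other genes of the 8, sul2 and say1 were also highest at 0 min and gal1 later. sul2, named as a sulfate transporter, averaged 1.67 ± 0.78 at 0 min and 0.51 ± 0.92 at 40 min, and its spread at 40 min came from cds1, which read 1.88 where the other strains read -0.08 to 0.14. say1, a sterol deacetylase, averaged 1.42 ± 0.24 at 0 min and -0.40 ± 0.26 at 40 min. gal1, the galactokinase, averaged -0.38 at 0 min, was lowest at 40 min with -1.22 ± 0.26 and highest at 120 min with 0.95 ± 0.35 (SD over 3 strains). All 3 strains measured at 120 min read above 0 there (1.32 in rad3, 0.62 in cds1, 0.91 in WT), and all 4 read -0.95 or less at 40 min.

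The galactose genes did not share this course, although gal7, gal10 and gal1 stand together in the annotation. gal7 was highest at 0 min with 0.26 ± 0.15 and read -0.67 to -0.47 on average at every later time. gal10, the epimerase, stayed between -0.15 and 0.02 on average, with an adjusted p of 0.673 for the F test, and its 2 probes correlated at -0.30 over the conditions. pan5, named as a ketopantoate reductase of pantothenate synthesis, was lowest at 0 min with -1.67 ± 0.16 and highest at 120 min with 0.22 ± 0.15. ftm5 was also highest at 120 min, at a lower level, with -2.97 ± 0.39 at 40 min and -1.15 ± 0.29 at 120 min. tlh1 gave an adjusted p of 0.0536, so no change over time was called for it.

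**Figure D2:**
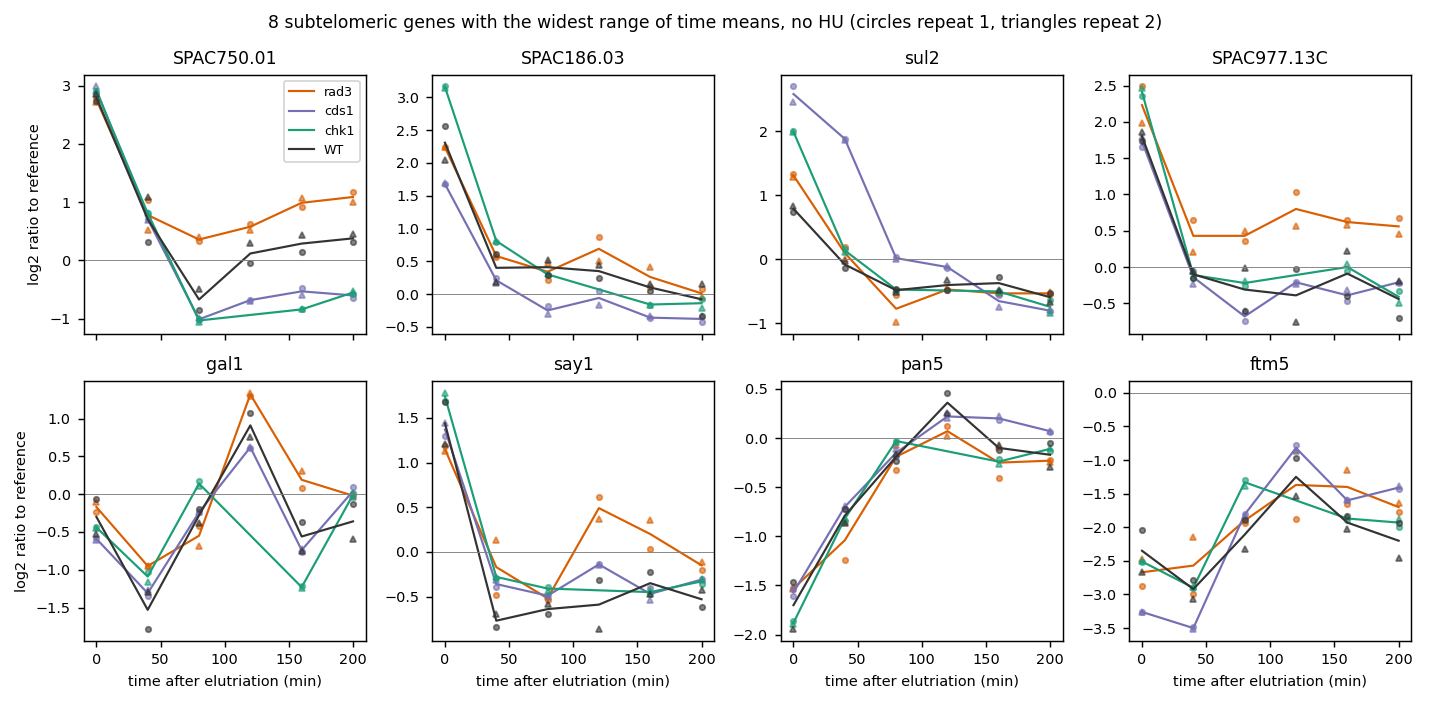
Log2 ratio to the reference (y axes, a scale for each panel) against time after elutriation in min (x axes) without HU, for the 8 genes with the widest range of time means. Lines join the means of the array repeats of each strain, circles are repeat 1 and triangles repeat 2, and chk1 has no point at 120 min. SPAC750.01, SPAC186.03, sul2, SPAC977.13C and say1 are highest at 0 min in every strain, and gal1 and pan5 peak at 120 min in WT.

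Set directly against 40 min, the start differed for 28 of the 69 genes (40.6%, against 67.5% of all units), 21 higher at 0 min and 7 lower, where 29.9% of all units were higher and 37.6% lower. At the right end of chromosome II 8 of 11 genes were called, and at the left end of that chromosome 4 of 19. The differences of 0 min minus 40 min were 2.02 ± 0.14 (SE, as for all differences that follow) for SPAC977.13C, 1.85 ± 0.15 for SPAC186.03 and 1.82 ± 0.15 for say1, each at an adjusted p of 3.95e-09 or less by limma. SPAC750.01 differed by 2.1 ± 0.26 and sul2 by 1.16 ± 0.29. Both of these calls were lost after quantile normalization, which evens out the wider spread of the 0 min arrays (0.51, adjusted p = 0.161, and 0.35, adjusted p = 0.294). The other 3 were still called after it, with smaller differences of 1.03 for SPAC977.13C, 0.60 for SPAC186.03 and 1.21 for say1. With 1 probe per gene SPAC750.01 differed by 0.32, without a call.

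yhb1, the flavohaemoglobin that detoxifies nitric oxide, was also higher at 0 min than at 40 min. It read 0.17, -0.51, -0.66 and -0.20 at 0 min in rad3, cds1, chk1 and WT, against -1.35, -1.47, -1.92 and -1.14 at 40 min, a difference of 1.17 ± 0.12. gal7 and gal1 were higher at 0 min by 0.86 ± 0.13 and 0.85 ± 0.20. SPBPB2B2.18, of the right end of chromosome II, averaged 0.81 at 0 min and -0.32 at 40 min, with 2.08 in chk1 and 0.15 to 0.61 in the other strains at 0 min.

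The genes that were lower at the start include transport genes of the left end of chromosome I. nhe1, the sodium and proton antiporter of salt tolerance, read -0.52, -0.99, -0.93 and -0.67 at 0 min in rad3, cds1, chk1 and WT, against -0.03, 0.10, 0.07 and -0.03 at 40 min (difference -0.80 ± 0.09). fex1, a fluoride export channel, differed by -0.60 ± 0.11 and SPAC977.12, next to it, by -0.76 ± 0.09. pan5 differed by -0.83 ± 0.09 (-0.49 after quantile normalization) and SPAC750.07C by -0.63 ± 0.15. None of these 5 genes, picked for the size of this fall, overlapped between the times over the 4 strains. The share of all units without overlap was not counted.

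SPBPB2B2.08 was lower at the start by 1.16 on the log2 scale, with the widest gap in cds1. It read 3.35 with HU and 3.40 without HU in cds1 at 40 min, on array repeats no more than 0.15 apart, where the other strains read 0.37 to 0.80 in both arms at that time. At 0 min cds1 had 0.88 and at 80 min 1.10. A similar burst was found at the left end of chromosome II. SPBPB10D8.02C read 0.95 in cds1 with HU at 40 min, 0.86 and 1.11 in cds1 without HU at 0 and 40 min, and 0.89 in chk1 at 0 min, where every other value of it lay between -1.38 and -0.24. Its neighbour SPBPB10D8.01, chosen here after its values were seen and overlapping it in the annotation, read 0.31 with HU and 0.13 without HU in cds1 at 40 min, against -1.41 to -1.11 in the other strains at that time. These bursts are described without a test.

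Without HU, each mutant was compared with WT at matched times. The 3 comparisons share the WT samples, so their values are given side by side and no overlap between them is counted. rad3 differed from WT for 18 of the 69 genes (26.1%, against 9.77% of all units), 13 higher and 5 lower, where 3.39% of all units were higher and 6.38% lower. cds1 differed for 28 (40.6%, against 40% of all units), 17 higher and 11 lower, against 19.8% and 20.2% of all units. chk1 differed for 15 (21.7%, against 16.4% of all units), 8 higher and 7 lower, against 8.11% and 8.27%. The median difference over the 69 genes was 0.11 in rad3, 0.12 in cds1 and 0.09 in chk1, against -0.02, 0 and 0 over all units. The excess of calls in rad3 over all units was not seen with 1 array repeat alone. With the second repeat alone 36 genes were called in rad3 (52.2%, against 54.4% of all units), and with the first alone 22 (31.9%, against 29.1%). In cds1 the counts were 37 with the second repeat alone (53.6%, against 54.3%) and 14 with the first (20.3%, against 10.4%). In chk1 they were 26 (37.7%, against 35.8%) and 9 (13%, against 12%).

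tlh1 differed most from WT in cds1. It read 0.97, 0.90, 1.14, 0.89, 1.61 and 1.32 from 0 to 200 min in cds1, against -0.44, -0.28, -0.06, -0.16, -0.23 and -0.12 in WT. The groups did not overlap, and the difference was 1.35 ± 0.13 (SE, adjusted p = 5.91e-07, limma). It stayed between 1.02 and 1.78 under every alternative run for it. In rad3 tlh1 read -0.53, -0.57, -0.50, -1.47, -0.45 and -0.45, a difference of -0.44 ± 0.13 from WT (adjusted p = 0.0354). That difference rested on the first array repeat: it was -1.05 with that repeat alone and 0.17 with the second alone. WT read -0.06 to 0.30 on the first and -0.91 to -0.19 on the second repeat. In chk1 tlh1 read 0.07, -0.14, 0.08, 0.41 and -0.31 at 0, 40, 80, 160 and 200 min, and no difference was called. Whether the probes of tlh1 also read similar copies at other ends was not tested.

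SPAC212.06C, of the same end, also had its lowest median in rad3 and its highest in cds1. Its lowest, median and highest values were -0.14, -0.11 and 0.01 in rad3, 0.70, 0.76 and 1.09 in cds1 and -0.31, 0.20 and 0.50 in chk1, against 0.09, 0.26 and 0.55 in WT. The difference from WT was -0.37 ± 0.10 in rad3 (adjusted p = 0.024) and 0.57 ± 0.10 in cds1 (adjusted p = 0.000208), with no overlap of either with WT. In rad3 the call was lost after quantile normalization and with 1 probe per gene. The 2 probes gave -0.55 and -0.19 in rad3 and 1.01 and 0.12 in cds1, so the difference in cds1 rests mainly on 1 probe. Other genes of this clone series did not follow tlh1: SPAC212.02 and SPAC212.08C were higher in all 3 mutants than in WT, by 0.56, 0.37 and 0.51 and by 0.42, 0.52 and 0.44 in rad3, cds1 and chk1. With the first array repeat alone SPAC212.02 differed by 0.01 in rad3 and 0.12 in chk1, and SPAC212.08C by 0.15 in chk1, and these calls were lost.

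**Figure D3:**
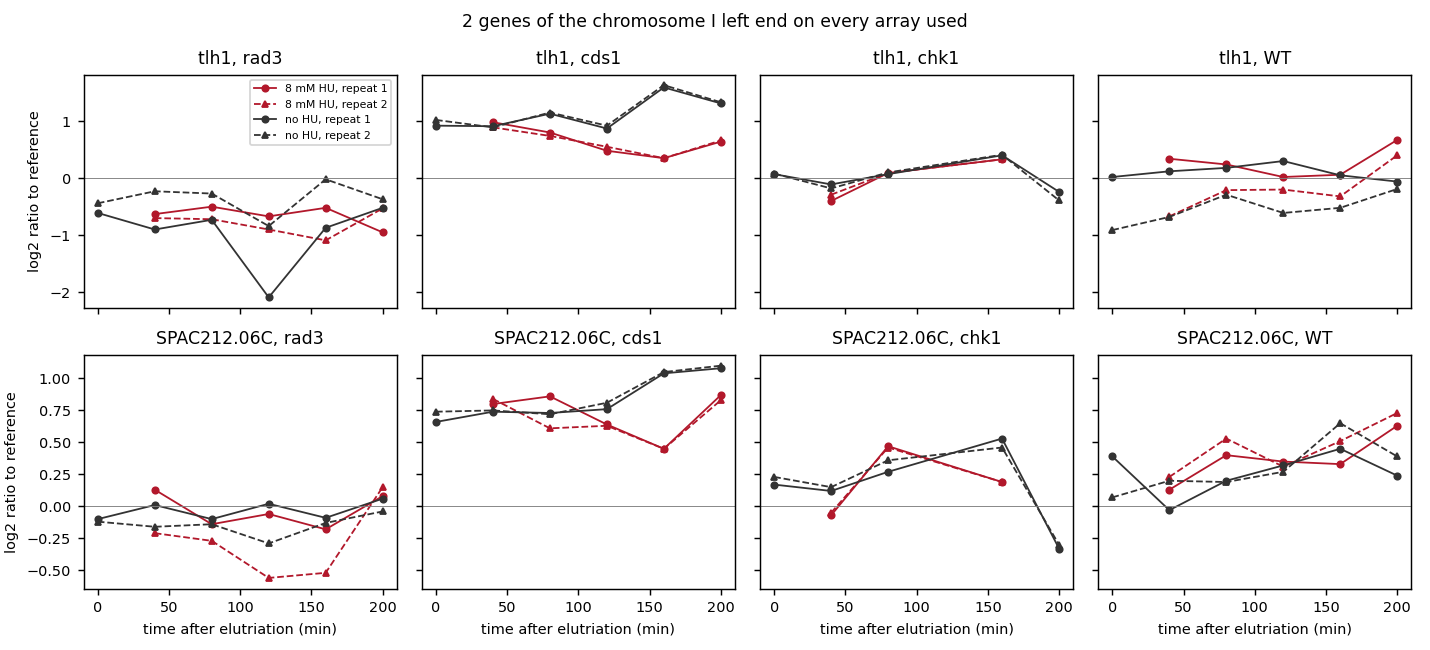
Log2 ratio to the reference (y axes) of tlh1 (top) and SPAC212.06C (bottom) on each array against time after elutriation in min (x axes), for rad3, cds1, chk1 and WT from left to right. Red is 8 mM HU and grey no HU, circles with solid lines are repeat 1 and triangles with dashed lines repeat 2. tlh1 lies at or above 0.35 on every cds1 array and below 0 on every rad3 array, and in WT repeat 1 lies above repeat 2 at every time in both arms.

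Several transport and enzyme genes of the ends were lower in mutants than in WT, and others were higher. sul2 was called higher in cds1 by 0.67, and gdt1, described below, was higher in all 3 mutants. The call of sul2 was lost after quantile normalization, with the first array repeat alone and without 0 min. put4, the proline permease, had a lowest, median and highest value of -1.24, -0.65 and 0.04 in cds1, against -0.14, 0.81 and 1.44 in WT, and was lower at all 6 times (difference -1.28 ± 0.09, adjusted p = 5.05e-09). Its differences in rad3 and chk1 were -0.32 ± 0.09 and -0.38 ± 0.09, and the one in rad3 was 0.20 with the first array repeat alone. plb4, named as a phospholipase B, was lower in cds1 by 0.74 ± 0.10 and in chk1 by 0.44 ± 0.10, and dak2, a dihydroxyacetone kinase, by 0.63 ± 0.09 and 0.46 ± 0.10. Probes of plb4 carry IDs of the SPBC1348 series, so near-identical copies may share its signal. With the first array repeat alone plb4 differed by -0.42 in cds1 and by -0.15 in chk1, where the call was lost. yhb1 was lower in cds1 by 0.49 ± 0.10 and in chk1 by 0.74 ± 0.10. With 1 probe per gene the calls of yhb1 in cds1 (-0.30, adjusted p = 0.0514, limma) and of plb4 (-0.32) and dak2 (-0.34, adjusted p = 0.0555) in chk1 were lost.

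chk1 also showed a change of -1.09 ± 0.26 in SPAC977.14C, a gene between SPAC977.13C and dak2 on chromosome I. Its lowest, median and highest values were -1.58, -0.78 and 0.16 in chk1, against -0.17, 0.50 and 0.92 in WT, and it was lower at all 5 times. SPBPB2B2.05 moved in opposite directions, at -0.57 ± 0.08 in chk1 and 0.49 ± 0.07 in rad3. At the right end of chromosome I gdt1 and SPAC869.09 were higher in mutants. gdt1 read 0.83, 0.95 and 1.22 as its lowest, median and highest values in rad3, 0.52, 0.58 and 0.84 in cds1 and 0.45, 0.66 and 0.78 in chk1, against -0.02, 0.22 and 0.39 in WT. None of the mutant ranges of gdt1 overlapped that of WT, and its differences were 0.79 ± 0.08, 0.45 ± 0.08 and 0.45 ± 0.09. The one in chk1 fell to 0.21 and lost its call with the second array repeat alone. That call was also lost with 1 probe per gene and with the matching arrays put back. In WT the median of gdt1 was -0.08 on the first and 0.49 on the second repeat. It was 0.96 and 1.04 in rad3, 0.55 and 0.62 in cds1 and 0.67 and 0.61 in chk1. The gap to WT was thus narrower on the second repeat in each mutant. SPAC869.09 was higher by 1.03 ± 0.21 in rad3 and by 0.90 ± 0.21 in cds1, at all 6 times in both, though with 1 probe per gene the call in cds1 was lost, at 0.65. The pseudogene SPAC977.13C was higher in rad3 by 0.77 ± 0.11, also at all 6 times.

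The largest positive differences in cds1 after tlh1 were 1.09 ± 0.25 for SPBPB2B2.08, 0.90 for SPAC869.09 and 0.87 ± 0.15 for SPBPB2B2.06C. For SPBPB2B2.08 the 2 probes gave 0.30 and 1.88, and for SPBPB2B2.06C the call was lost with the first array repeat alone, at 0.51. In chk1 the largest was 0.78 ± 0.21 for SPBPB2B2.18, of which the first array repeat alone kept 0.62, without a call. The values of SPAC750.08C turned with the array repeat. It was called higher in rad3 by 0.60 and in cds1 by 0.83, but without HU its median in WT was -0.27 on the first array repeat and -2.32 on the second, and in rad3 -1.69 and -0.05. With the first repeat alone the differences became -1.56 in rad3 and -0.36 in cds1, and with the second alone 2.75 and 2.01. The medians of the array repeats over the conditions without HU lay more than 0.5 apart for 17 of the 69 genes in WT, for 2 in rad3 and for none in cds1 or chk1.

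**Figure D4:**
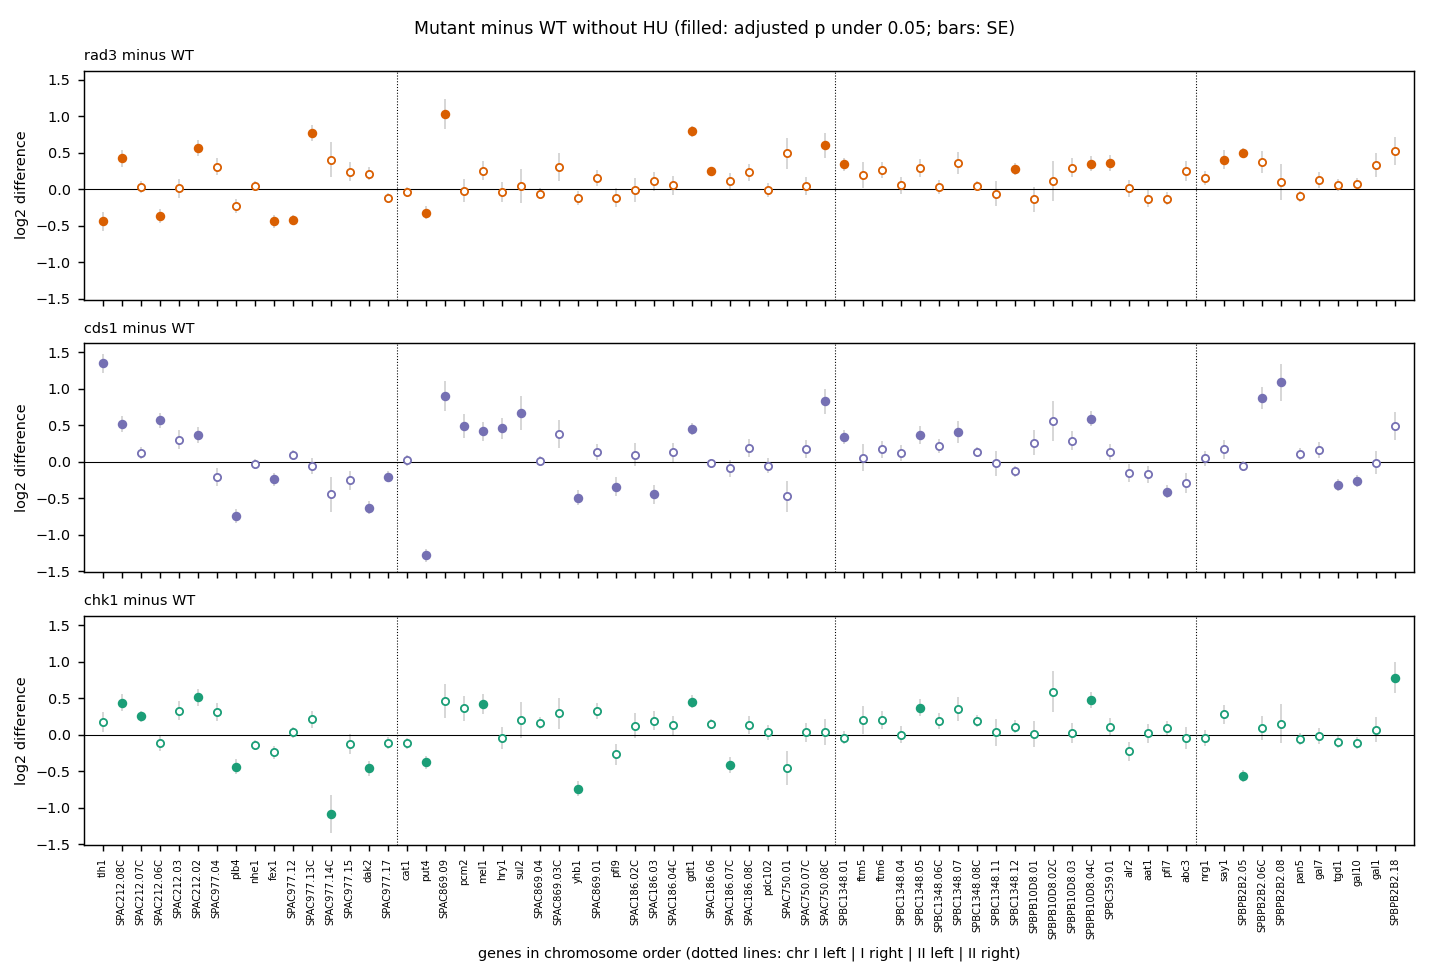
Difference of each mutant from WT without HU (y axes, log2, from limma's fit over matched times; bars are SE) for the 69 genes in chromosome order (x axis), with rad3, cds1 and chk1 in separate panels. Filled points have an adjusted p under 0.05. tlh1 is at 1.35 in cds1 and -0.44 in rad3, put4 at -1.28 in cds1, SPAC977.14C at -1.09 in chk1, and gdt1 is filled in all 3 panels.

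HU was compared with no HU at the same strain and time. At 40 and 80 min no subtelomeric gene was called over the 4 strains by limma (0% of all units too), with 11 of the 69 and 313 of all units at an unadjusted p under 0.05. Over 120, 160 and 200 min, 9 of the 69 differed in rad3 (13%, against 18.5% of all units), 4 higher and 5 lower, against 10.2% and 8.25%. In cds1 19 differed (27.5%, against 29.7%), 9 higher and 10 lower, against 13.9% and 15.8%. In WT 1 gene differed and was higher (1.45%, against 5.52% of all units, 2.59% higher and 2.93% lower). In chk1, measured at 160 min alone, 1 was higher (1.45%, against 3.97%, 1.65% higher and 2.31% lower). With each array as a sample and the repeat number as a block the counts were 24 in rad3 (34.8%, against 40.7% of all units), 32 in cds1 (46.4%, against 48.5%), 7 in chk1 (10.1%, against 22.3%) and 16 in WT (23.2%, against 27.2%).

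These counts depend on the time points that enter. Without 120 min they were 23 in rad3 (33.3%, against 31.5% of all units), 30 in cds1 (43.5%, against 40.5%) and 16 in WT (23.2%, against 18.5%). Without 160 min they were 0, 1 and 0, against 0.0797%, 1.57% and 0.279% of all units, and without 200 min 0 in rad3 (0.399% of all units) and 9 in cds1 (13%, against 9.55%). The calls in the 2 mutants thus rose and fell with those over all units. For aat1, abc3, pan5 and fex1, described next, the difference was larger at 160 and 200 min than at 120 min in both rad3 and cds1.

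All 5 genes that were lower with HU in rad3 (aat1, abc3, fex1, pan5 and SPBPB10D8.04C) were among the 10 lower in cds1, which is 100% of the rad3 list and 50% of the cds1 list. Of all units, 268 were lower in both, which is 64.7% of the 414 lower in rad3 and 33.8% of the 793 lower in cds1. With the second array repeat alone 2 of the 69 were called lower in rad3, where abc3, pan5 and SPBPB10D8.04C lost their calls. fex1 lost its call in rad3 under 7 of 15 alternatives, and no call of the 5 in rad3 was kept without 160 min or without 200 min. aat1, named as an amino acid transporter, read -1.04, -1.73 and -1.86 with HU at 120, 160 and 200 min in rad3, against -0.78, -0.63 and -0.81 without HU (difference -0.80 ± 0.19, adjusted p = 0.0126). In cds1 it read -0.81, -1.82 and -1.52 with HU, against -0.37, -0.50 and -0.98 without (-0.77 ± 0.19, adjusted p = 0.00922). At 160 and 200 min aat1 was lower with HU in WT too, by 0.77 and 0.45, where its mean difference did not pass the test.

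abc3 and SPBPB10D8.04C, also of the left end of chromosome II, were lower in both mutants too. abc3 read 0.75, -0.17 and -0.54 with HU in rad3, against 0.76, 0.69 and 0.45 without, and -0.38, -1.01 and -0.97 with HU in cds1, against -0.19, 0.06 and 0.13 without. The differences were -0.62 ± 0.17 and -0.79 ± 0.17, and in WT abc3 differed by -0.06, 0.01 and -0.17 at the 3 times. SPBPB10D8.04C read -0.51, -1.01 and -0.97 with HU in cds1, against 0.10, 0.36 and 0.05 without (-1 ± 0.15, adjusted p = 0.00152). It differed by -0.55 ± 0.15 in rad3, and by -0.18, -0.89 and -0.44 at the 3 times in WT. pan5 differed by -0.66 ± 0.16 in rad3 and -0.71 ± 0.16 in cds1, and fex1 by -0.44 ± 0.15 and -0.61 ± 0.15.

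tlh1 fell with HU in cds1, where it was high without it. It read 0.52, 0.35 and 0.65 with HU at 120, 160 and 200 min, against 0.89, 1.61 and 1.32 without, with no overlap (-0.77 ± 0.18, adjusted p = 0.00835). All 3 values with HU still lay above those of WT without HU. In WT the differences of tlh1 were 0.07, 0.10 and 0.66, and in rad3 0.68, -0.36 and -0.29. Without 160 min the call in cds1 was lost, with a difference of -0.52, and after quantile normalization it was -1.63. SPAC977.12 also fell in cds1, with 0.53, -0.15 and -0.33 with HU against 0.70, 0.74 and 0.81 without (-0.73 ± 0.19). Unlike tlh1, it was lower with HU in WT and rad3 as well, though not called there. Its differences at the 3 times were -0.21, -0.78 and -0.92 in WT and -0.09, -0.45 and -0.93 in rad3.

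Higher with HU were 4 genes in rad3 and 9 in cds1. None was called in both, where 311 of all units were (60.5% of the 514 higher in rad3 and 44.7% of the 696 higher in cds1), and whether rad3 and cds1 differed was not tested. SPAC750.01 read -0.42, 0.87 and 1.34 with HU in cds1, against -0.68, -0.53 and -0.60 without (1.2 ± 0.25, adjusted p = 0.00444). In rad3 its differences at the 3 times were 0.02, 0.52 and 0.78, in WT -0.10, 0.68 and 1.11, and in chk1 0.52 at 160 min, none of them called. SPBPB2B2.05 read 0.47, 1.02 and 1.11 with HU in cds1, against 0.24, -0.15 and -0.39 without (0.96 ± 0.23). At 160 and 200 min it differed by 0.76 and 0.84 in rad3 and by 0.52 and 1.03 in WT, and at 160 min by 1.33 in chk1, without passing the test. SPAC977.14C and SPAC977.13C, neighbours on chromosome I, differed by 0.81 ± 0.18 and 0.72 ± 0.19 in cds1, and SPAC977.13C by 0.65 and 0.69 at 160 and 200 min in rad3, uncalled. pfl9 and ftm6 rose by 0.63 ± 0.15 and 0.53 ± 0.16 there.

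In rad3 the genes called higher with HU were put4 by 0.56 ± 0.16, ftm5 by 0.49 ± 0.15, tgd1 by 0.43 ± 0.12 and SPAC977.04 by 0.38 ± 0.11. With the second array repeat alone SPAC977.04 (0.08), ftm5 (0.37) and tgd1 (0.45) lost their calls, and with the first alone put4 did (0.43). SPAC977.04 and ftm5 also lost theirs after quantile normalization and with 1 probe per gene. In WT the gene called was SPBPB10D8.02C, with -0.85, -0.60 and -0.24 with HU, against -1.02, -1.07 and -0.85 without (0.42 ± 0.10, adjusted p = 0.0285). This call was lost under 7 of 15 alternatives, either array repeat left out among them, at differences of 0.31 to 0.55 over all 15. In chk1 it was plb4, with 0.12 with HU against -0.51 without at 160 min, a call lost under 6 of 12 alternatives. Whether the mutants differed from WT in their response was tested directly, with the mean of rad3 and cds1 set against WT in the same limma fit. None of the 69 genes was called (0.199% of all units were, 0.0199% higher and 0.179% lower), so no HU difference is shown to be particular to the mutants. At an unadjusted p under 0.05 there were 6 of the 69 genes and 669 of the 5016 units. The share was thus smaller among the 69 than over all units. With the repeat number as a block 5 genes were called (7.25%, against 9.53% of all units), and without 120 min 3 (4.35%, against 4.33%). The 6 were abc3 (-0.63 ± 0.21, adjusted p = 0.246), tlh1 (-0.65 ± 0.23, adjusted p = 0.264), pdc102 (0.52 ± 0.15), SPAC869.03C (-0.48 ± 0.19), SPAC212.06C (-0.30 ± 0.14) and SPAC977.17 (0.30 ± 0.14).

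**Figure D5:**
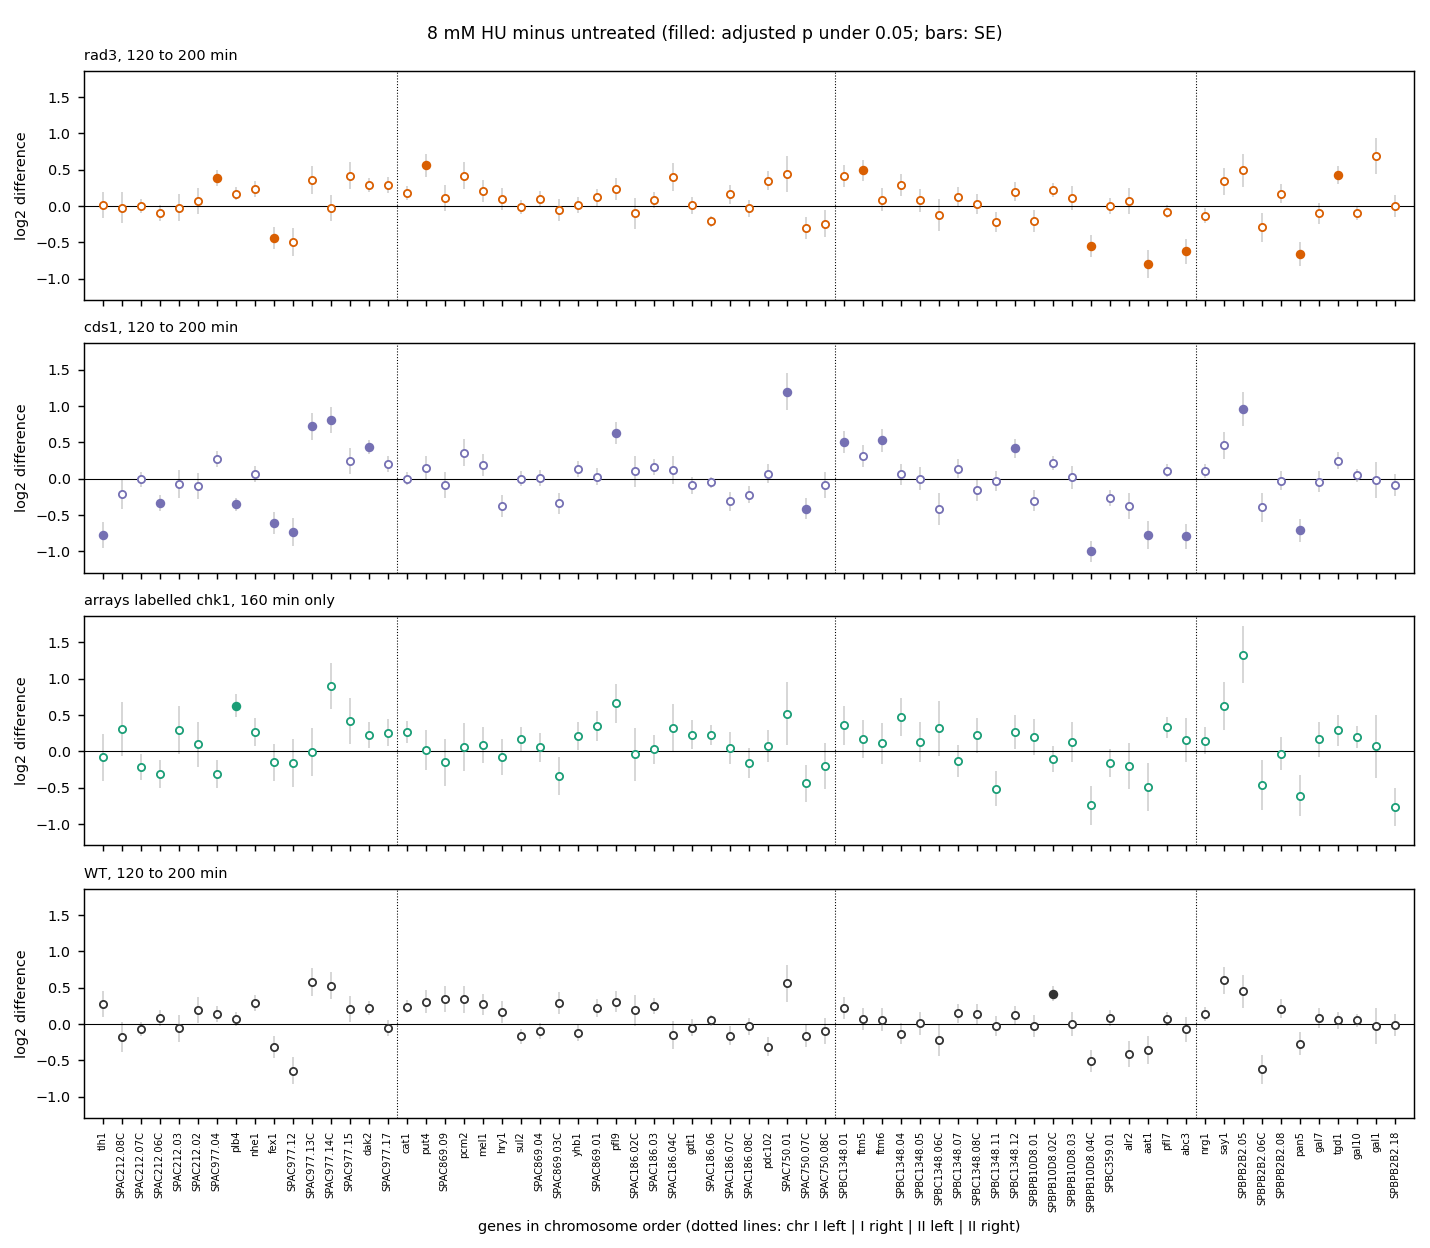
Difference of 8 mM HU minus no HU (y axes, log2, from limma's fit; bars are SE) for the 69 genes in chromosome order (x axis), in panels for rad3, cds1, arrays labelled chk1 and WT. The values are means over 120, 160 and 200 min, and for chk1 the 160 min value alone. Filled points have an adjusted p under 0.05: 9 in rad3, 19 in cds1, 1 in chk1 and 1 in WT.

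Neighbouring genes varied together in some stretches and not in others. Over the 37 conditions after 0 min, 55 pairs of genes with no other annotated protein-coding gene between them had a median correlation of 0.22. Of these pairs 12 (21.8%) were above 0.5. Over all 599 pairs of the same end the median was 0.08 and 10.7% were above 0.5, and over 1747 pairs of different ends 0.06 and 8.87%. The conditions share arrays, reference and strains, so these values are a description. The pairs named next were chosen after their values were seen.

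On the left end of chromosome I a run of 4 genes correlated in sequence: SPAC977.14C with SPAC977.15 at 0.73, SPAC977.15 with dak2 at 0.91 and dak2 with SPAC977.17 at 0.78. dak2 and SPAC977.17 overlap in the annotation, so their signals may not be separate. fex1 and SPAC977.12 correlated at 0.78, while SPAC977.12 and the pseudogene SPAC977.13C, the next pair, ran opposite at -0.83. On chromosome II SPBC1348.01 and ftm5 correlated at 0.83, say1 and SPBPB2B2.05 at 0.81, and SPBC359.01 and alr2, an alanine racemase, at 0.66.

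The genes that encode the silencing machinery were measured for 28 of 29 listed and those of telomere proteins for 15 of 16. Without HU, 3 silencing genes differed from WT in rad3 (10.7%, against 9.77% of all units), all higher, 10 in cds1 (35.7%, against 40%; 7 higher, 3 lower) and 2 in chk1 (7.14%, against 16.4%), both higher. These shares were near or below those of all units. In cds1, where tlh1 was high, snf22, a chromatin remodeller of the SWI/SNF type, was higher by 0.41 ± 0.09 and rik1, a part of the Clr4 complex, by 0.32 ± 0.06. Of the core heterochromatin genes, named after their values were seen, swi6, the HP1-like heterochromatin protein, was higher there by 0.29 ± 0.09 and clr4, the methyltransferase, was lower by 0.20 ± 0.07. Of the telomere genes, 1 differed in rad3 (6.67%), 6 in cds1 (40%, 5 higher and 1 lower) and 2 in chk1 (13.3%). In cds1 they included poz1, a part of the shelterin bridge, at 0.48 ± 0.09, and rap1, which ties Taz1 to that bridge, at 0.38 ± 0.07. Their part in the values of the subtelomeric genes was not tested.

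With HU from 120 to 200 min, 4 silencing genes differed in rad3 (14.3%, against 18.5% of all units; 1 higher, 3 lower), 8 in cds1 (28.6%, against 29.7%; 3 higher, 5 lower) and 2 in WT (7.14%, against 5.52%), both lower. rik1 differed by -0.52 ± 0.12 and mit1, a chromatin remodeller of the SHREC complex, by 0.81 ± 0.17 in cds1. In WT the 2 were dcr1, the Dicer nuclease of RNA interference, at -0.50 ± 0.12 and lem2, an inner nuclear membrane protein, at -0.36 ± 0.10. Of the telomere genes 1 differed in rad3 (6.67%), 3 in cds1 (20%) and none in WT. At the start, 11 silencing genes (39.3%, against 67.5% of all units) differed from 40 min, 3 higher and 8 lower, with sir2, a histone deacetylase, at -0.66 ± 0.10 and chp2, another HP1-like protein, at -0.76 ± 0.07, and 8 telomere genes (53.3%), 3 higher and 5 lower.

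Markers of meiosis and sporulation, another state that cells of a culture could be in, were read for 14 of 15 listed. Their mean ratio was -0.36 to -0.16 over the strains at 0 min and -0.59 to -0.07 in the later conditions, so no condition read above the reference on average. Without HU 2 of the 14 differed from WT in rad3 (14.3%, against 9.77% of all units), both higher, 7 in cds1 (50%, against 40%; 5 higher, 2 lower) and 5 in chk1 (35.7%, against 16.4%; 3 higher, 2 lower). ste11, the transcription factor of sexual differentiation, was lower by 0.43 ± 0.13 in cds1 and by 0.79 ± 0.14 in chk1. With HU 4 differed in cds1 (28.6%, against 29.7%; 2 higher, 2 lower) and none in rad3 or WT. Their part in the values of the subtelomeric genes was not tested.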

How the data were processed

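The deposited table holds log2 ratios of sample (Cy5) over reference (Cy3) for 88 two-colour arrays, with the dyes given per the labels. Taken as exponents of 2, 99.678% of the values give ratios of 3 decimals (tolerance 0.01 of the last decimal). How the authors corrected background, normalized or filtered spots is not given in the sources used here. The number of arrays limits the precision. Symbols of 9632 of 9858 probes came from the platform annotation (44 probes had several, 182 none) and were brought up to date with the ASM294v3 gene table, which also gave biotypes and the order of genes. No coordinates are printed, because the arrays' build is not named. SPBCPT2R1 genes are not analysed here.

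The table was 99.401% complete, and 35 probes with values on under 80% of arrays were left out. Probes of a gene and array repeats of a condition were averaged. Over conditions the 2 probes of a gene had a median correlation of 0.678 in the 69 genes and 0.657 in all genes, and 7 of the 69 were below 0. limma 3.58.1 (lmFit and eBayes, R 4.3.3) was fitted to all 5016 units, with Benjamini-Hochberg adjustment over all of them and a threshold of 0.05. The 23 conditions of the untreated arm and the start had terms for strain and for time (14 residual degrees of freedom), and the 18 differences of HU minus no HU had a mean for each strain and phase, 40 and 80 min against later (10 residual degrees of freedom). For chk1 the HU value at 160 min is 1 difference, whose spread comes from the other strains. Figures were drawn with matplotlib 3.10.9, and the fits were tested on simulated data.

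Repeat numbers come from the array titles. The gap between repeats 1 and 2 correlated between conditions with a median r of 0.70 in WT, above 0.1 in all 55 pairs of conditions, 0.36 in rad3 (51 of 55), 0.14 in cds1 (32 of 55) and -0.01 in chk1 (0 of 28). Whether the repeats of WT came from separate cultures or array batches was not tested.

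Named genes were tlh1, the 8 with the widest range of time means, up to 6 called higher and 6 called lower with the largest change in each comparison, the highest and lowest mean of each end, and the called genes of largest change in the silencing, telomere and meiosis lists. Others are named where the text says so or to complete a count or run. The genes, lists and tests were chosen with earlier results of these data known. Alternatives were each array repeat alone, each array as a sample with a replicate block, quantile normalization, the 6 matching arrays put back, 1 probe per gene, and leaving out each strain, each late time or 0 min. Milder ones were arrays centred on their median, no filter on missing values, and eBayes with trend and robust settings.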

Additional observations from a re-analysis of the deposited data

Results flagged for a closer look

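For 5 of the subtelomeric genes the late HU differences ran in opposite directions in a mutant and in WT, at each of 120, 160 and 200 min. The share of all units with such a pattern was not counted, so the number is not read as a trait of these genes. tlh1 was lower with HU in cds1 (-0.37, -1.25 and -0.67) and higher in WT (0.07, 0.10 and 0.66), so that the means differed by -1.04. plb4 had -0.13, -0.28 and -0.64 in cds1 and 0.00, 0.15 and 0.06 in WT, a gap of -0.42 between the means. Its 0.00 in WT, at 120 min, is too small to show a direction. SPAC869.03C had -0.22, -0.18 and -0.60 in cds1 and 0.14, 0.19 and 0.54 in WT, a gap of -0.63. SPBC359.01 had -0.06, -0.11 and -0.59 in cds1 and 0.13, 0.07 and 0.04 in WT, a gap of -0.33. pfl7 had -0.15, -0.01 and -0.09 in rad3 and 0.09, 0.09 and 0.02 in WT, a gap of -0.15. The difference between the single mutant and WT was not tested for any of them. The test of rad3 and cds1 together against WT gave adjusted p-values of 0.264 for tlh1, 0.542 for plb4, 0.299 for SPAC869.03C, 0.509 for SPBC359.01 and 0.84 for pfl7 (limma).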

How the results depend on the processing

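Of 150 counts and median levels recomputed under alternatives, 118 stayed within 1.5 times the reported value. This compares sizes only, and it includes counts that were 0 and stayed 0. The genes behind a count could change: the 22 called for rad3 against WT without the second repeat held 11 of the 18 reported. With 1 array repeat left out, the genes called numbered 22 to 36 for rad3 against WT, 14 to 37 for cds1, 9 to 26 for chk1, 3 to 21 for late HU in rad3, 14 to 18 in cds1, 1 to 3 in WT and 0 for chk1 at 160 min. For rad3 against WT these were 31.9% and 52.2% of the 69, against 29.1% and 54.4% of all units, so the excess over all units was lost. Without the first and the second repeat in turn, late HU called 4.35% and 30.4% in rad3, against 6.52% and 26.6% of all units. In cds1 these shares were 20.3% and 26.1%, against 16.2% and 25.8%. In WT they were 1.45% and 4.35%, against 5.08% and 4.21%. For chk1 at 160 min 0.678% and 2.47% of all units were called. None of the late HU calls in WT with 1 repeat left out was SPBPB10D8.02C. With each array as a sample and a replicate block, the late HU counts were 24 in rad3, 32 in cds1, 7 in chk1 and 16 in WT, and 5 genes differed between the mutants and WT, each a share below that of all units (7.25% against 9.53% for the 5). No other count moved by over 1.5 times under the block. Quantile normalization gave 11 for rad3 against WT (15.9%, against 5.76% of all units) and 5 for HU in chk1 (7.25%, against 17.2%). Putting the matching arrays back gave 7 for chk1 against WT (10.1%, against 6.6% of all units). It gave 2 for HU in chk1 (2.9%, against 6.4%) and 0 for late HU in WT (2.57% of all units). With 1 probe per gene HU called 0 in chk1 and 0 in WT (2.39% and 3.83% of all units). Leaving out WT or rad3 gave 0 for HU in chk1 (3.63% and 3.19% of all units). Late HU without 120 min called 23 in rad3, 30 in cds1, 16 in WT and 3 for the mutants against WT. Without 160 min it called 0 in rad3, 1 in cds1 and 0 in WT, and without 200 min 0 in rad3 and 9 in cds1. Of 70 results for named genes, 24 kept direction and call under all alternatives and 6 reversed under at least 1. For rad3 against WT, without repeat 1 and without repeat 2 in turn, these were tlh1 (0.17 and -1.05), SPAC750.08C (2.75 and -1.56), fex1 (-0.93 and 0.05) and put4 (-0.83 and 0.20). For cds1 it was SPAC750.08C (2.01 and -0.36), and for chk1 SPAC186.07C at 0.31 with 1 probe. The causes were not tested. Signal over background is not in the table used here, so a low ratio cannot be told from a dim spot.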
